A study of Rattus norvegicus with 64 samples.

Results

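The endocannabinoid system in these samples was followed through 6 genes, chosen by symbol as the receptor and the main enzymes that make and break down its ligands. They are Cnr1, Dagla, Daglb, Mgll, Faah and Napepld, 6 of the 17260 genes in the count files, and all 6 passed the filter on low counts that left 12521 genes for testing. Endocannabinoids are lipids that neurons release from their membranes on demand and that travel backwards across the synapse to dampen transmitter release. Cnr1 encodes the CB1 cannabinoid receptor, a Gi/o-coupled receptor that sits mostly on axon terminals of GABAergic and, at lower density, glutamatergic neurons. The ligand 2-arachidonoylglycerol (2-AG) is made by the diacylglycerol lipases encoded by Dagla and Daglb and is broken down mainly by monoacylglycerol lipase, encoded by Mgll. The other ligand, anandamide, is released from its membrane precursor by the phospholipase encoded by Napepld and is hydrolyzed by fatty acid amide hydrolase, encoded by Faah. In cortex, this signaling takes part in synaptic plasticity and in the wiring of circuits during development.

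Ribosomal RNA-depleted total RNA of Long Evans rats, with no genetic change or drug treatment, was sequenced from the medial (MEC) and lateral (LEC) entorhinal cortex. Layer II (LII) and the pooled layers III–VI (LDeep) were dissected separately at postnatal days 2, 9, 23 and 45. The 4 tissues (MEC LII, MEC LDeep, LEC LII and LEC LDeep) were each represented by 5 P2, 4 P9, 3 P23 and 4 P45 libraries, in all 16 groups and 64 libraries. The tissue was bulk cortex with neurons, glia, vessels and, in LII, adjoining meninges, so that fewer cells of a type and less RNA per cell cannot be told apart.

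In the rat genome build Rn6 used for counting, Cnr1 lies on chr5:49311030-49333056 (plus strand, 2 exons) and Dagla on chr1:226297016-226353611 (minus strand, 20 exons). Daglb lies on chr12:13113073-13157652 (minus strand, 20 exons), Mgll on chr4:120671489-120771068 (plus strand, 8 exons) and Napepld on chr4:9981958-10002247 (plus strand, 4 exons). No exon of the 6 genes overlapped an exon of another gene in the files. Faah is listed at 2 places of the minus strand of chromosome 5, chr5:134330204-134349056 and chr5:134852899-134871751, each with 15 exons of the same lengths. Read pairs that map to more than 1 place were not counted, and Faah had 2 to 27 counts per library. How many pairs were lost in this way was not tested. All Faah values are therefore uncertain, and its level cannot be set against that of the other genes. The gene table of the newer build GRCr8 lists 1 Faah gene, and 232 of the 17260 genes in the files are listed at 2 places with the same series of exon lengths.

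Of the 6 genes, 4 had a promoter in the RefSeq table of build GRCr8 (Mgll, Napepld, Daglb and Faah). The promoters of the 3 that rose with age in every tissue are shown, each with 300 bases read 5′ to 3′ on the strand of the gene and ending 50 bases past its start. Capitals mark matches on either strand to any of 5 promoter motifs. The GC box, bound by Sp1 and its relatives, was searched as GGGCGG. The E-box was searched as CACGTG. For the TATA box, which positions the start of transcription, the letters were TATAAA. The CCAAT box is named by its own letters. The cAMP response element, bound by CREB, was searched as TGACGTCA. The windows are chr4:122749186-122749485 (plus strand) for Mgll, chr4:14253010-14253309 (plus strand) for Napepld and chr12:16215709-16216008 (minus strand) for Daglb, all in GRCr8.
Mgll: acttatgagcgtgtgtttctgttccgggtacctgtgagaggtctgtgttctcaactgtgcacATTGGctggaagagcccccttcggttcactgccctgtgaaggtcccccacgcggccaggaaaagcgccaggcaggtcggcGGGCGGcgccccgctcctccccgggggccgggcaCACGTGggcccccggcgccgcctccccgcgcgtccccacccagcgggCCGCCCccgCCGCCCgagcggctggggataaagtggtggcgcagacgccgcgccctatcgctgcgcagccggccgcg
Napepld: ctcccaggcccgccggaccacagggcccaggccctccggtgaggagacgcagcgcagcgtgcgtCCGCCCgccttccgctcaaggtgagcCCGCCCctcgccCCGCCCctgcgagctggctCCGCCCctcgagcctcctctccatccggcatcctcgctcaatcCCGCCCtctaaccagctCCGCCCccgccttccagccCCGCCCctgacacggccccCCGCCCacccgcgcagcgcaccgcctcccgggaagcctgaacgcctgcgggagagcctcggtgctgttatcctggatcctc
Daglb: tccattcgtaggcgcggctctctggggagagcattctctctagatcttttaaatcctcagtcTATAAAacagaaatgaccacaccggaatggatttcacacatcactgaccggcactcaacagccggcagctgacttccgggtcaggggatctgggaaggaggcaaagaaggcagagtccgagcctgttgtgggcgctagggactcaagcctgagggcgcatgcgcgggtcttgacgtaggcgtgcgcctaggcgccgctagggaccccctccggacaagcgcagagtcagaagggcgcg
The Napepld promoter held 8 matches to the GC box and none to the other motifs. In the Mgll promoter there were 3 GC boxes, 1 E-box and 1 CCAAT box. Daglb had no GC box and 1 match to the letters of the TATA box, at base 63 of the window. The start lies after 250 bases of the window, so this match is not next to it. No motif was found in all 3 promoters, and none of the matches of a promoter overlapped. Among the 33469 promoters of the table, 33.1% held a GC box, 6.42% an E-box, 14.2% a TATA box, 37.5% a CCAAT box and 1.83% the cAMP response element. The GC content was 74.7% for Napepld, 72.3% for Mgll and 59% for Daglb, against a median of 51.7% over the table. These matches describe the sequence and are not evidence of binding.

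Between 3894334 and 11439143 read pairs per library were counted on genes (median 7569160), so 1 CPM (counts scaled to the library's total) stood for 3.96 to 11.2 counts. Within groups no library was a copy of another, since chi-square divided by its degrees of freedom was 3.08 or more in each of 100 replicate pairs. Libraries of different groups were not compared in this way. The layer labels were borne out by their markers, with all 3 LII markers (Reln, Calb1, Cux2) higher and all 5 deep layer markers (Tbr1, Fezf2, Bcl11b, Sox5, Foxp2) lower in LII. However, 5 libraries stood apart from their groups, with an SD of their deviations over genes above 0.5 on the log2 scale against at most 0.42 in the others. In the library labelled MEC LII P2 replicate 1, the cortical marker Slc17a7 had 6 counts, while every other library had at least 1663, and Zic4 stood at 7.92 log2 CPM against 1.72 to 2.82 in the P2 LII libraries that did not stand apart. The library labelled MEC LDeep P2 replicate 1 had Reln at 9.49 and the meningeal gene Col1a1 at 8.16 log2 CPM, outside the LDeep range at P2 (7.66 to 8.59 for Reln and −0.06 to 3.55 for Col1a1). The library labelled MEC LII P2 replicate 3 had the deep layer gene Fezf2 at 5.16 and Col1a1 at 1.95 log2 CPM, outside the LII range at that age (0.61 to 3.45 and 7.43 to 8.50), while its Reln level of 9.96 was inside the LII range (9.56 to 10.5). Among these markers, Reln and Col1a1 of the former library and Fezf2 and Col1a1 of the latter thus lay on the side of the other layer. MEC LDeep P2 replicate 4 and LEC LDeep P45 replicate 4 had residual 18S ribosomal RNA (Rn18s) at 6.47 and 6.61 log2 CPM, above the other 62 libraries (0.02 to 6.12). Each main result is given with these 5 libraries. Where leaving them out changes a call, and for some of the values that move, the result without them is given too.

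LFC denotes the log2 fold change of the edgeR fit with its standard error (SE), adjusted p is the Benjamini-Hochberg (BH) adjusted p over the 12521 genes tested, and a gene was called at an adjusted p below 0.05. The labels do not tie libraries to animals, so the p-values measure the spread between these samples, which may share animals. Means of groups are given with their SD over 5, 4, 3 and 4 libraries in the order of the ages.

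Per length of counted exons, the receptor gene was the most abundant of the set, with Faah left aside. The median over 64 libraries was 73.4 CPM per kb for Cnr1, 56.4 for Mgll, 14.2 for Dagla, 12.3 for Daglb and 2.59 for Napepld. Faah was at 0.21, a value that cannot be ranked with the others. Besides the limit given above, its length of 7052 bases covers the exons of both places where it is listed. Cnr1 and Mgll exchanged places with age. At P2/P9 the median of Cnr1 was 79.5 CPM per kb and that of Mgll 22.5, and at P23/P45 they were 61.4 and 113, respectively. The lowest Mgll level at P23/P45 (82.9 CPM per kb) was above the highest at P2/P9 (63.8). Dagla and Daglb had similar levels per length at both stages, with medians of 12.2 and 10.5 CPM per kb at P2/P9 and of 19.2 and 17.2 at P23/P45. Napepld rose from a median of 1.53 to 8.08 CPM per kb and remained below both lipases.

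**Figure D1:**
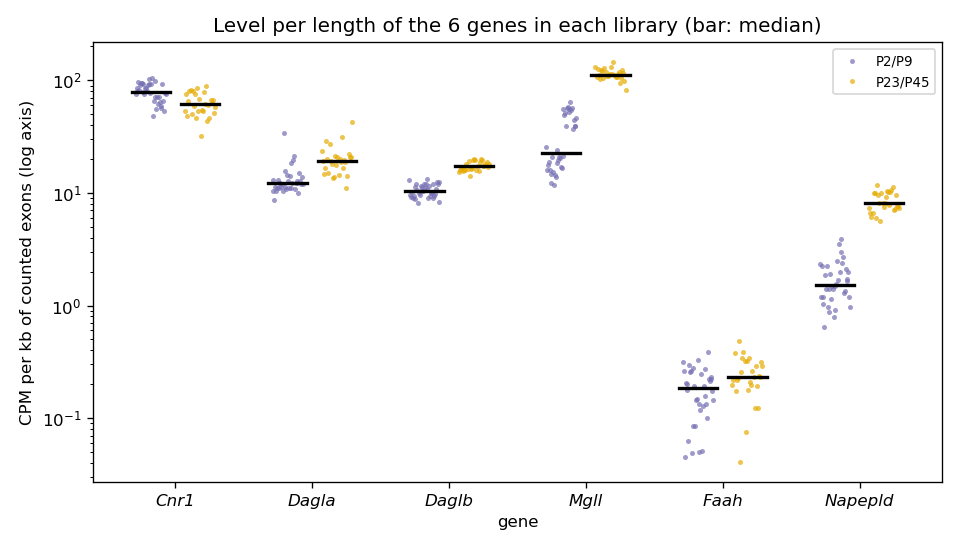
Level of each gene per length of counted exons (CPM per kb, log axis) in the 36 libraries of P2/P9 and the 28 of P23/P45, 1 point per library with the median as a bar. Mgll passes from a median of 22.5 to 113 and Cnr1 from 79.5 to 61.4. The low Faah points rest on 2 to 27 counts and on a length that covers both of its listed places. They cannot be ranked with the other genes.

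Over the 4 tissues together, the 5 enzyme genes were higher in the older (P23/P45) than in the younger (P2/P9) animals and the receptor gene was lower. Among single tissues, Faah was called in LEC LII alone, on uncertain counts. All 6 genes were called, 5 higher and 1 lower in older animals. Change with age was the rule in these tissues, since 81.6% of all genes tested were called, 41.0% higher and 40.6% lower in older animals, so that a count of 6 in 6 is not particular to the set. The median LFC of the 6 genes was 0.64, against 0.01 over all genes. Napepld (LFC 2.29 ± 0.10 SE, adjusted p 9.7e-28) and Mgll (1.94 ± 0.06, 3.5e-36) changed most, a 4.88-fold and a 3.83-fold increase. For 3 of the 6 genes, Daglb, Mgll and Napepld, no older library overlapped a younger one, which was the case for 7.42% of all genes tested.

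**Figure D2:**
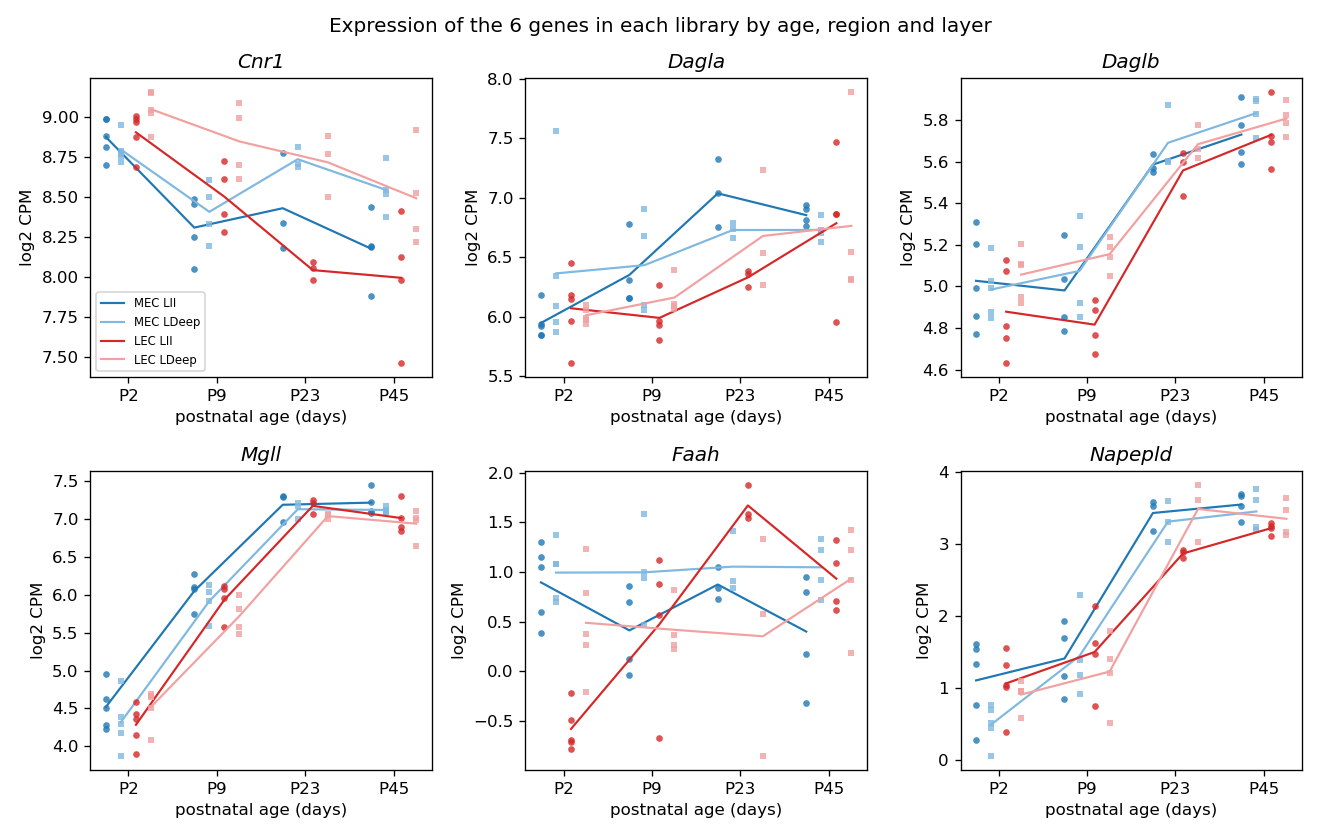
Log2 CPM of the 6 genes in each of the 64 libraries against age, with 1 color and marker per tissue, lines through the group means, and a separate scale in each panel. Mgll climbs from P2 to P23, Daglb and Napepld mainly from P9 to P23, and Cnr1 falls most in LEC LII.

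Dagla encodes the lipase that supplies most 2-AG for retrograde signaling at synapses. Its lowest, median and highest values were 5.61, 5.98 and 7.56 log2 CPM at P2 (20 libraries) and 5.80, 6.13 and 6.90 at P9 (16 libraries). At P23 they were 6.25, 6.70 and 7.32 (12 libraries), and at P45 5.96, 6.79 and 7.89 (16 libraries). The ages overlapped, but the medians moved up by steps. In MEC LII, the means from P2 to P45 were 5.95 ± 0.14, 6.35 ± 0.29, 7.04 ± 0.29 and 6.86 ± 0.08 log2 CPM, against 6.37 ± 0.69, 6.44 ± 0.42, 6.73 ± 0.07 and 6.73 ± 0.10 in MEC LDeep. The corresponding means were 6.07 ± 0.31, 5.99 ± 0.20, 6.33 ± 0.07 and 6.79 ± 0.62 in LEC LII and 6.01 ± 0.06, 6.16 ± 0.15, 6.68 ± 0.50 and 6.77 ± 0.76 in LEC LDeep. The LFC between ages was 0.58 ± 0.10 (adjusted p 3.0e-07), and the step that was called was P23 over P9 (0.46 ± 0.15, adjusted p 0.0048), which lost its call without P23 replicate 2 (0.30, adjusted p 0.11). The highest Dagla levels came from the libraries rich in Rn18s, since MEC LDeep P2 replicate 4 was at 7.56 against 5.87 to 6.34 log2 CPM in the rest of its group, and LEC LDeep P45 replicate 4 was at 7.89 against 6.31 to 6.54. Over the 64 libraries, the deviations of Dagla from its group means had a correlation of 0.60 with those of Rn18s. For the other members it lay between −0.17 (Daglb) and 0.12 (Faah). The part of this in the Dagla results was not tested. Without the 5 libraries the age LFC of Dagla was 0.56 ± 0.07 (adjusted p 6.4e-10).

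Daglb encodes the other diacylglycerol lipase, which is known for its role in microglia and macrophages. Its libraries ranged from 4.63 to 5.31 log2 CPM at P2 (median 4.99), from 4.68 to 5.34 at P9 (4.98), from 5.44 to 5.87 in P23 libraries (5.61) and from 5.57 to 5.93 in P45 libraries (5.78). P2 and P9 were at the same level and every library of P23 or P45 lay above them. By tissue, Daglb averaged 5.03 ± 0.23, 4.98 ± 0.21, 5.59 ± 0.05 and 5.73 ± 0.14 log2 CPM in MEC LII and 4.98 ± 0.13, 5.07 ± 0.23, 5.69 ± 0.16 and 5.83 ± 0.09 in MEC LDeep over the 4 ages in order. In the LEC it averaged 4.88 ± 0.21, 4.82 ± 0.12, 5.56 ± 0.11 and 5.73 ± 0.15 in LII and 5.06 ± 0.12, 5.15 ± 0.08, 5.68 ± 0.08 and 5.81 ± 0.07 in LDeep. The age LFC was 0.70 ± 0.04 (adjusted p 7.7e-23) with P23 over P9 at 0.62 ± 0.06 (2.7e-13) as the only called step. P9 over P2 was 0.02 ± 0.05 (adjusted p 0.80), with a 95% interval that excludes a change of the size seen between P9 and P23.

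Mgll encodes monoacylglycerol lipase, a serine hydrolase of presynaptic terminals and astrocytes that ends the action of 2-AG. At P2 the lowest, median and highest libraries had 3.87, 4.41 and 4.96 log2 CPM, and at P9 5.49, 5.98 and 6.27. By P23 these were 6.97, 7.12 and 7.30, and at P45 6.65, 7.09 and 7.45. No 2 of the ages P2, P9 and P23 overlapped, while P23 and P45 lay in the same range. The share of all genes without overlap between single ages was not counted. In MEC LII, the means from P2 to P45 were 4.52 ± 0.29, 6.05 ± 0.22, 7.19 ± 0.19 and 7.22 ± 0.17 log2 CPM, against 4.32 ± 0.36, 5.92 ± 0.23, 7.13 ± 0.11 and 7.12 ± 0.04 in MEC LDeep. The corresponding means were 4.28 ± 0.26, 5.93 ± 0.25, 7.17 ± 0.10 and 7.01 ± 0.21 in LEC LII and 4.52 ± 0.25, 5.72 ± 0.23, 7.04 ± 0.04 and 6.94 ± 0.20 in LEC LDeep. Both P9 over P2 (1.5 ± 0.08, adjusted p 2.4e-23) and P23 over P9 (1.22 ± 0.08, 4.2e-19) were called.

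Napepld encodes the phospholipase that releases anandamide and related N-acylethanolamines. It had few counts in the younger animals, 6 to 28 per library at P2 and 7 to 34 at P9, and 37 to 127 at P23 and P45. The lowest, median and highest values were 0.05, 0.95 and 1.62 log2 CPM at P2, followed by 0.52, 1.4 and 2.29 at P9. They were 2.81, 3.25 and 3.83 at P23, then 3.11, 3.31 and 3.77 in the P45 libraries. The younger libraries all stayed below the older ones. By tissue, Napepld averaged 1.11 ± 0.57, 1.41 ± 0.49, 3.44 ± 0.22 and 3.55 ± 0.18 log2 CPM in MEC LII and 0.49 ± 0.28, 1.45 ± 0.60, 3.32 ± 0.28 and 3.46 ± 0.28 in MEC LDeep over the 4 ages in order. In the LEC it averaged 1.06 ± 0.44, 1.5 ± 0.58, 2.87 ± 0.06 and 3.23 ± 0.08 in LII and 0.91 ± 0.19, 1.23 ± 0.53, 3.49 ± 0.41 and 3.35 ± 0.25 in LDeep. P9 over P2 was called at a LFC of 0.62 ± 0.15 (adjusted p 0.00033) and P23 over P9 at 1.92 ± 0.15 (7.7e-17). With quantile normalization in limma voom, P9 over P2 was 0.38 (adjusted p 0.053).

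Faah encodes the hydrolase that ends the action of anandamide, and its values carry the limit of the listing at 2 places. The libraries held 2 to 22 counts at P2, 2 to 27 at P9, 2 to 21 in the P23 libraries and 3 to 25 in those of P45. Ages overlapped throughout. In MEC LII, the means from P2 to P45 were 0.90 ± 0.39, 0.41 ± 0.43, 0.87 ± 0.16 and 0.40 ± 0.59 log2 CPM, against 0.99 ± 0.28, 1.00 ± 0.46, 1.05 ± 0.31 and 1.05 ± 0.28 in MEC LDeep. The corresponding means were −0.58 ± 0.23, 0.48 ± 0.80, 1.67 ± 0.18 and 0.93 ± 0.33 in LEC LII and 0.49 ± 0.54, 0.42 ± 0.27, 0.35 ± 1.11 and 0.93 ± 0.54 in LEC LDeep. The age LFC was 0.49 ± 0.14 (adjusted p 0.0014), and 0.31 (adjusted p 0.053) with quantile normalization in limma voom. In LEC LII Faah had 2, 2, 2, 4 and 2 counts at P2, followed by 2, 17, 15 and 6 at P9. The P23 libraries had 16, 21 and 15 counts and those of P45 had 5, 9, 8 and 25, so that younger and older libraries overlapped (age LFC 1.58 ± 0.30, adjusted p 7.5e-06), while MEC LII (−0.01 ± 0.28), MEC LDeep (0.03 ± 0.26) and LEC LDeep (0.35 ± 0.28) were not called. P23 over P9 was called in the 4 tissues together (0.47 ± 0.20, adjusted p 0.042), a call lost without P9 replicate 1 (0.35), P9 replicate 4 (0.48), P23 replicate 3 (0.21) or P45 replicate 2 (0.46).

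Cnr1 was the 1 gene of the set that fell. The lowest, median and highest libraries were 8.69, 8.91 and 9.16 log2 CPM at P2, followed by 8.05, 8.49 and 9.09 at P9. They were 7.98, 8.59 and 8.88 at P23, then 7.46, 8.34 and 8.92 in the P45 libraries. The ages overlapped, with the P2 libraries in the upper part of the range. By tissue, Cnr1 averaged 8.87 ± 0.12, 8.31 ± 0.20, 8.43 ± 0.31 and 8.18 ± 0.23 log2 CPM in MEC LII and 8.80 ± 0.09, 8.41 ± 0.18, 8.74 ± 0.07 and 8.54 ± 0.15 in MEC LDeep over the 4 ages in order. In the LEC it averaged 8.90 ± 0.13, 8.50 ± 0.20, 8.04 ± 0.06 and 8.0 ± 0.40 in LII and 9.05 ± 0.11, 8.85 ± 0.23, 8.72 ± 0.20 and 8.49 ± 0.31 in LDeep. The age LFC was −0.31 ± 0.05 (adjusted p 2.9e-07), a 1.24-fold decrease, and P9 over P2 was the called step (−0.38 ± 0.07, adjusted p 2.7e-06).

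Over the steps between neighboring ages, 3 of the 6 genes (Cnr1, Mgll and Napepld) were called for P9 over P2, where 63.4% of all genes were. For P23 over P9, 5 of 6 (all except Cnr1) were called, against 64.6%. None was called for P45 over P23, against 3.85% of all genes (482 by edgeR). At an unadjusted p under 0.05 there were 2, Cnr1 (−0.17 ± 0.08, adjusted p 0.26) and Daglb (0.15 ± 0.06, adjusted p 0.18). The 95% intervals for this last step reached from −0.60 to 0.21 for Faah, from −0.16 to 0.42 for Dagla and from −0.22 to 0.11 for Mgll. Without the 5 libraries that stood apart, the Dagla LFC for P9 over P2 went from 0.11 to 0.21 (adjusted p 0.053). That for P45 over P23 went from 0.13 to 0.002.

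Within single tissues, the 2-AG hydrolase, Daglb and Napepld were called in all 4. The age LFC of Mgll lay between 1.87 ± 0.11 (LEC LDeep) and 2.00 ± 0.11 (MEC LDeep), that of Daglb between 0.64 ± 0.08 (LEC LDeep) and 0.79 ± 0.08 (LEC LII), and that of Napepld between 1.81 ± 0.21 (LEC LII) and 2.58 ± 0.20 (MEC LDeep). Dagla was called in MEC LII (0.79 ± 0.19), LEC LDeep (0.74 ± 0.19) and LEC LII (0.56 ± 0.20), but not in MEC LDeep (0.24 ± 0.19, adjusted p 0.27). This tissue held the P2 library with the highest Dagla value, and without the 5 libraries its LFC was 0.44 (adjusted p 0.0058), while that of LEC LDeep moved from 0.74 to 0.49 (adjusted p 0.0022). In LEC LII, the Dagla call was lost without P45 replicate 2 (0.39, adjusted p 0.082), which also had Rn18s at 6.12 log2 CPM. Cnr1 fell in LEC LII (−0.67 ± 0.10, adjusted p 1.8e-07), LEC LDeep (−0.33 ± 0.10, 0.0040) and MEC LII (−0.28 ± 0.10, 0.016), and had a LFC of 0.04 ± 0.10 in MEC LDeep (adjusted p 0.77). The calls in MEC LII and LEC LDeep were lost without P23 replicate 1 (−0.25 and −0.26, adjusted p 0.053 and 0.050). Counted by tissue, 5 of 6 genes were called in MEC LII (66.5% of all genes), 3 in MEC LDeep (66.2%), 6 in LEC LII (62.7%) and 5 in LEC LDeep (64.5%).

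**Figure D3:**
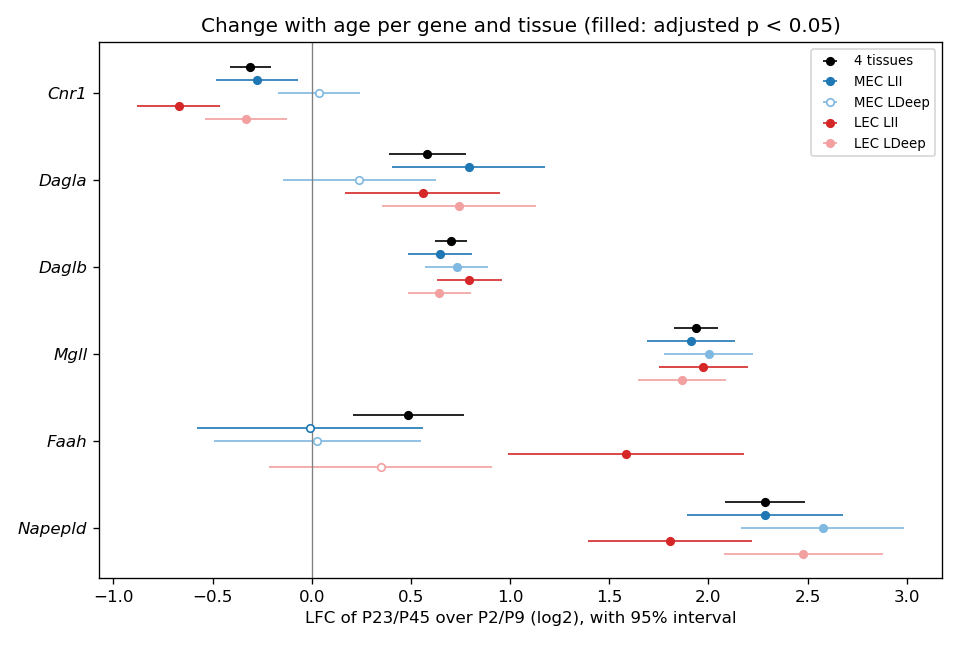
LFC of P23/P45 over P2/P9 with 95% intervals for each gene, over the 4 tissues together (black) and in each tissue, with filled points at an adjusted p below 0.05. Mgll, Daglb and Napepld are filled in every tissue, Cnr1 and Dagla are open in MEC LDeep, and Faah is filled only in LEC LII and in the 4 tissues together.

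Markers of several cell types moved with age in the same libraries. Summed over 6 oligodendrocyte markers, the level ranged from 94.6 to 844 CPM at P2/P9 and from 772 to 16286 CPM at P23/P45, and all 6 were higher in older animals. The 6 astrocyte markers went from 446–3016 to 2011–4066 CPM (5 higher, Aldh1l1 lower), the 6 microglia markers from 59.5–227 to 237–438 CPM (6 higher) and the 4 neuron markers from 589–2858 to 3302–5051 CPM (4 higher). Of 9 interneuron markers, 5 were higher and 1 (Sst) lower in older animals, and their sum went from 270–1368 to 799–1436 CPM. Their part in the age differences of the 6 genes was not tested.

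Between layers, over all ages and both regions, the 2 genes called were the receptor gene and Daglb. LFC is that of LII over LDeep with ages and regions weighted equally. Cnr1 (−0.29 ± 0.05, adjusted p 3.7e-06) and Daglb (−0.12 ± 0.04, adjusted p 0.010) were lower in LII, and the other 4 genes were not called. This gives 2 of 6 called, against 54.0% of all genes, and 2 of 6 lower in LII, against 30.5%, and the median LFC of the 6 genes was −0.11, against −0.05 over all genes. The 95% intervals of the genes not called were −0.29 to 0.10 for Dagla, −0.02 to 0.20 for Mgll, −0.49 to 0.07 for Faah and −0.12 to 0.29 for Napepld. For Daglb the call was lost without P23 replicate 2 (−0.09, adjusted p 0.085). With quantile normalization in limma voom, the scaling named in the methods of the study, Cnr1 (−0.16) and Daglb (−0.11) remained called, Mgll (0.15) and Faah (−0.59) were called as well, and Napepld turned from 0.08 to −0.24 (adjusted p 0.048), so no layer direction can be given for Napepld. There, Dagla went from −0.09 to 0.01. Without the 5 libraries, the layer LFC was −0.31 for Cnr1 and −0.15 for Daglb, and that of Dagla went from −0.09 to 0.00.

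The layer difference of Cnr1 appeared with age. At P2 the LFC was −0.03 ± 0.09 and at P9 −0.22 ± 0.10, neither of them called (19.2% and 33.0% of all genes were), and at P23 it was −0.48 ± 0.12 (adjusted p 0.0012) and at P45 −0.42 ± 0.10 (0.0010), against a background of 25.9% and 26.4%. The test of the change itself, the layer LFC at P23/P45 minus that at P2/P9, gave −0.33 ± 0.10 (adjusted p 0.034), and 8.80% of all genes were called in it. It was lost without P2 replicate 3 (−0.32, adjusted p 0.054), P9 replicate 4 (−0.31, 0.066) or P23 replicate 3 (−0.34, 0.067), and was −0.40 (adjusted p 0.0075) without the 5 libraries. Cnr1 was the only one of the 6 genes called in this test.

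By region, the Cnr1 layer LFC was −0.41 ± 0.07 in the LEC (adjusted p 5.6e-06) and −0.17 ± 0.07 in the MEC (adjusted p 0.062). The difference between regions was not called (0.25 ± 0.10, adjusted p 0.28), as for all 6 genes, and 1.25% of all genes were called there (156 by edgeR). At an unadjusted p under 0.05 it was Cnr1 that passed. In the LEC, LII libraries at P23 had 8.06, 8.09 and 7.98 log2 CPM and LDeep libraries 8.50, 8.77 and 8.88. The layers did not overlap there, nor did they for Faah and Napepld. How many of all genes lack an overlap in so small a comparison was not counted. At P45 the Cnr1 values were 7.46, 8.41, 7.98 and 8.13 in LII and 8.22, 8.92, 8.52 and 8.30 in LDeep, with an overlap. The LFC were −0.68 ± 0.17 (adjusted p 0.0037) at P23 and −0.48 ± 0.14 (0.016) at P45, where 11.3% and 13.3% of all genes were called. They were lost without P23 replicate 2 (−0.65, adjusted p 0.051) or P23 replicate 3 (−0.61, 0.10) at P23 and without P45 replicate 1 (−0.45, 0.069) or P45 replicate 3 (−0.48, 0.075) at P45. The P45 call was also lost with at least 10 counts in every sample (−0.42, 0.051), with quantile normalization (−0.36, 0.092) and in a fit of that age alone (−0.47, 0.13). In the MEC neither age was called, and without the 5 libraries Cnr1 was called at P45 (−0.36 became −0.40, adjusted p 0.041). Between libraries of the same age and replicate number, LII was lower than LDeep in 15 of 16 pairs in the LEC and in 11 of 16 in the MEC, where the number is not known to mark an animal.

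**Figure D4:**
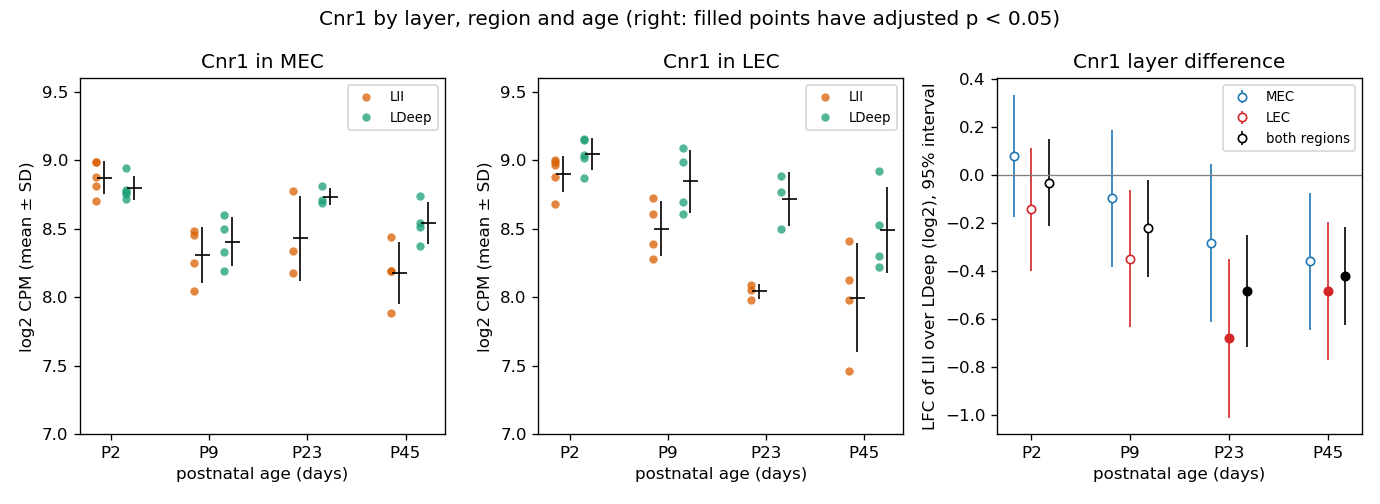
Left and middle, log2 CPM of Cnr1 in each library of the MEC and the LEC by age, LII beside LDeep, with mean and SD. Right, the LFC of LII over LDeep with 95% intervals at each age for the MEC, the LEC and both regions. The layer LFC over both regions goes from −0.03 at P2 to −0.48 at P23. The LEC layers do not overlap at P23, where the share of all genes without overlap was not counted.

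Daglb was lower in LII in the LEC (−0.18 ± 0.06, adjusted p 0.011) and at P9 (−0.22 ± 0.08, 0.031), and within LEC P9 (−0.34 ± 0.11, 0.034, against 15.5% of all genes). At that age LEC LII had 4.77, 4.93, 4.89 and 4.68 log2 CPM and LEC LDeep 5.14, 5.19, 5.05 and 5.24, without overlap. The share of all genes without overlap there was not counted. Both P9 calls were lost with RLE size factors (−0.19 and −0.30), DESeq2 (−0.19 and −0.30), no filter (−0.18 and −0.30), at least 10 counts in every sample (−0.16 and −0.27) and a fit of that age alone (−0.16 and −0.26), and the latter also in a fit of the LEC alone (−0.28). They were lost as well without P9 replicate 1 (−0.17 and −0.32), P9 replicate 2 (−0.22 and −0.35), P9 replicate 4 (−0.22 and −0.27), P23 replicate 1 (−0.18 and −0.29) or P23 replicate 2 (−0.18 and −0.29). The call over all ages in the LEC was lost without P23 replicate 2 (−0.13, adjusted p 0.11). Faah was lower in LII at P2 (−0.81 ± 0.27, adjusted p 0.028). In the LEC at P2, LII had 2 to 4 counts against 13, 15, 5, 8 and 6 in LEC LDeep (−1.52 ± 0.43, adjusted p 0.012, against 12.1% of all genes). Both of these calls were lost without P2 replicate 1 (−0.78 and −1.35) or P2 replicate 2 (−0.69 and −1.27). The former was also lost without P2 replicate 5 (−0.66) and in a fit of that age alone. At P23 in the LEC the direction was the opposite, with 16, 21 and 15 counts in LII and 9, 2 and 16 in LDeep. There the LFC was 1.21 ± 0.43 (adjusted p 0.060), and 1.17 without the 5 libraries (adjusted p 0.047). Per region, 2 of 6 genes (Cnr1 and Daglb) were called between layers in the LEC, against 38.6% of all genes, and 0 of 6 in the MEC, against 40.8%. In the MEC, 2 of 6, Cnr1 and Faah, had an unadjusted p under 0.05. Without the 5 libraries, of which 4 were MEC libraries, Faah was called there (−0.42 became −0.51, adjusted p 0.031).

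The markers of other cell types also differed between layers. The 8 meningeal fibroblast markers summed to 25.8–1624 CPM in LII and 28.0–1104 CPM in LDeep, with medians of 991 and 126. Of these, 7 of 8 were called higher in LII, and Dcn was called lower (−0.48). Of 6 astrocyte markers 5 were higher in LII (medians of the sum 2160 and 1236 CPM), and of 6 oligodendrocyte markers 4 were lower (156 and 247 CPM). All 3 tested endothelial markers and 5 of 6 microglia markers were higher in LII, 3 of 4 neuron markers were lower, and of the oligodendrocyte precursor markers Pdgfra was higher and Cspg4 was not called. Interneuron markers were mixed, as Vip, Htr3a and Slc17a8 were higher in LII, Cck and Sst were lower, and Gad1, Gad2, Slc32a1 and Pvalb were not called. Cck is expressed by the interneurons richest in CB1 receptor as well as by pyramidal cells. Its layer LFC was −1.17 and its age LFC 1.92, against −0.29 and −0.31 for Cnr1. The part of these markers in the Cnr1 and Daglb differences was not tested.

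Between regions, LFC is that of MEC over LEC with ages and layers weighted equally. None of the 6 genes was called, against 15.4% of all genes (1928 by edgeR), and none had an unadjusted p under 0.05, with Dagla at 0.19 ± 0.10 (unadjusted p 0.052, edgeR quasi-likelihood) and Faah at 0.28 ± 0.14 (0.053). The 95% intervals were −0.14 to 0.06 for Cnr1, −0.0016 to 0.39 for Dagla, −0.05 to 0.11 for Daglb, −0.0069 to 0.22 for Mgll, −0.0039 to 0.55 for Faah and −0.14 to 0.27 for Napepld. Without the 5 libraries Dagla was called (0.20 ± 0.07, adjusted p 0.036), and Napepld went from 0.07 to −0.02. At P2 Faah was higher in the MEC (1.25 ± 0.27, adjusted p 0.0038, where 2.67% of all genes were called), where LEC LII had 2 to 4 counts and MEC LII 7 to 22.

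The regions differed in how the receptor changed with age. The region LFC of Cnr1 at P23/P45 minus that at P2/P9 was 0.38 ± 0.10 (adjusted p 0.019), and 4.38% of all genes were called in this test. At the younger ages the region LFC was −0.14 ± 0.09 at P2 and −0.32 ± 0.10 at P9, and at the older ages 0.21 ± 0.12 at P23 and 0.09 ± 0.10 at P45, none of them called. Without the 5 libraries the value at P9 was called (−0.32, adjusted p 0.049). At P9 the LDeep libraries of the LEC (8.61 to 9.09 log2 CPM) were all above those of the MEC (8.19 to 8.60), and at P23 the LII libraries of the LEC (7.98 to 8.09) were all below those of the MEC (8.18 to 8.77). The LII libraries of the regions did not overlap at P23 for Dagla, Faah and Napepld either, nor at P2 for Faah or at P45 for Napepld. The share of all genes without overlap in these comparisons was not counted. The Cnr1 call for the change with age was lost without P9 replicate 1 (0.34, adjusted p 0.068), P23 replicate 1 (0.39, 0.055), P23 replicate 2 (0.33, 0.091) or P45 replicate 4 (0.35, 0.050). Its LFC was 0.36 (adjusted p 0.035) without the 5 libraries. Faah was called too (−0.96 ± 0.28, adjusted p 0.035), a call lost without the 5 libraries (−0.89, adjusted p 0.059). It was also lost when any of these replicates was left out, with LFC from −0.96 to −0.87: P2 replicates 1, 3 and 5, P9 replicates 1 and 4, P23 replicates 1 and 3 and P45 replicates 1, 2 and 4.

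**Figure D5:**
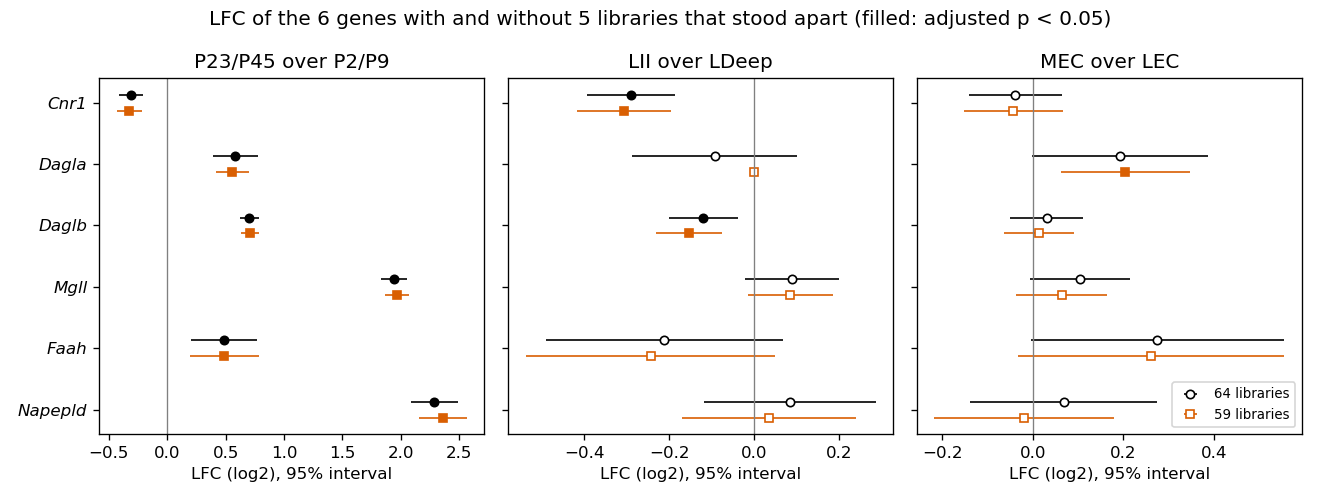
LFC of the 6 genes with 95% intervals for age, layer and region, over all 64 libraries (black) and without the 5 libraries that stood apart (orange), with filled points at an adjusted p below 0.05. The calls are the same except that Dagla is also called between regions over 59 libraries, and no interval is drawn for Dagla between layers, where the LFC over 59 libraries is 0.00.

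In the order of the 16 group means, neighbors mostly lay within their spread. Cnr1 was highest in LEC LDeep P2 and lowest in LEC LII P45, and of the 15 gaps between neighbors 1 was larger than the larger SD of the pair (LEC LDeep P2 over LEC LII P2). Dagla ran from MEC LII P23 down to MEC LII P2, also with 1 such gap. For Daglb, 2 gaps exceeded the SD, of which the one between LEC LII P23 and LEC LDeep P9 (0.40 log2 CPM) parted older from younger groups. Mgll had 3, with 0.89 between the older groups and P9 and 1.20 between P9 and P2. Napepld had 3 as well, the largest (1.37) between LEC LII P23 and LEC LII P9. For Faah 1 gap exceeded the SD, that between LEC LII P23 at the top and the next group.

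Over the 16 group means, Dagla, Daglb, Mgll and Napepld had similar profiles, Faah was less like them and Cnr1 ran the other way. Pearson's r was 0.94 between Daglb and Napepld, 0.93 between Mgll and Napepld, 0.85 between Daglb and Mgll and 0.85 between Dagla and Daglb. Faah had r of 0.31 with Dagla, 0.43 with Daglb, 0.43 with Mgll and 0.32 with Napepld. Cnr1 had r of −0.69 with Mgll, −0.54 with Napepld, −0.51 with Dagla, −0.45 with Daglb and −0.43 with Faah. All group means share the contrast between younger and older animals and, within an age, the libraries of all genes, so these values describe the profiles only. By the same measure, among 11896 other genes with a mean of at least 1 CPM, the 3 most alike were Tmem2 (0.90), Scyl2 (0.90) and Ptp4a1 (0.90) for Cnr1. For Daglb they were Camkk1 (0.99), Dlgap1 (0.98) and Rab11fip4 (0.98). The profile of Mgll was nearest to Fndc5, Psap and Chi3l1 (1.00, 0.99 and 0.99), that of Napepld to Ankrd40, Tyro3 and LOC294154 (0.99, 0.99 and 0.98), and that of Faah to Zfp260, LOC102723236 and Chchd2 (0.87, 0.86 and 0.83).

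Around these 6 genes, a list of 39 further endocannabinoid genes had 36 in the files and 33 tested. Between ages 13 were higher and 12 lower in older animals, between layers 9 were higher and 10 lower in LII, and between regions 2 were higher and 4 lower in the MEC. Of all genes, 81.6%, 54.0% and 15.4% were called in these comparisons, so the list was not called more often than the background between ages. The median LFC were 0.11, 0.01 and −0.07, against 0.01, −0.05 and 0.01 over all genes. Gpr55, Sgip1 and Pla2g4e were not analysed here, and Gpr18, Gpr119 and Hrasls5 did not pass the filter.

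Among receptors and their partners, Cnrip1, whose product binds the CB1 receptor, fell along with Cnr1 between ages (−0.46 ± 0.04) and was lower in LII (−0.26 ± 0.04) and in the MEC (−0.12 ± 0.04). Gprasp1, a sorting protein of G protein-coupled receptors, was also lower in older animals (−0.37 ± 0.05) and in LII (−0.33 ± 0.05). The capsaicin receptor gene Trpv1, which anandamide can activate, was higher in LII (0.89 ± 0.14) and not called with age, with a difference of its layer LFC, P23/P45 minus P2/P9, of −1.23 ± 0.28 (adjusted p 0.0020), and Cnr2, the other cannabinoid receptor gene, had 2 to 25 counts and was not called for age, layer or region. All 4 G protein genes fell with age, as did 40.6% of all genes, from −0.28 ± 0.11 for Gnao1 to −1.45 ± 0.04 for Gnai3. Between layers, Gnai1 was lower in LII (−0.30 ± 0.05) and Gnai2 (0.20 ± 0.03) and Gnai3 (0.10 ± 0.04) were higher, and Gnai2 was lower in the MEC (−0.18 ± 0.03).

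Of 16 tested genes of synthesis and its drive, 8 were higher and 3 lower in older animals, against 41.0% and 40.6% of all genes. The largest LFC was that of Hrasls (3.29 ± 0.24), which had 0 to 49 counts, and the lowest that of Plcg1 (−0.91 ± 0.06). The phospholipase C genes supply the diacylglycerol from which 2-AG is made, and Plcb1 (−0.60 ± 0.06) was lower and Plcb3 (0.73 ± 0.05) and Plcg2 (0.39 ± 0.10) were higher in LII. Grm5, the metabotropic glutamate receptor gene that drives 2-AG release, was lower in LII (−0.43 ± 0.07) and not called with age (−0.06 ± 0.07). Also between layers, Abhd4 (0.41 ± 0.05) was higher and Gde1 (−0.11 ± 0.04) and Inpp5d (−0.46 ± 0.08) were lower in LII. Between regions, Plcb1 (0.19 ± 0.06) and Chrm3 (0.34 ± 0.09) were higher and Ptpn22 (−0.93 ± 0.31) was lower in the MEC. 

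Of 9 genes of breakdown and transport, 5 were higher and 3 lower in older animals, with the same background. The further 2-AG hydrolases Abhd6 (0.99 ± 0.03) and Abhd12 (0.82 ± 0.04) rose, and Naaa, an acid amidase for N-acylethanolamines, rose by 1.41 ± 0.08. The extremes of the list were Ptgs2 (3.82 ± 0.11), the cyclooxygenase that can oxidize endocannabinoids, and Fabp7 (−3.97 ± 0.10), a fatty acid carrier of radial glia and young astrocytes. Between layers, Naaa (0.69 ± 0.08), Alox15 (0.57 ± 0.12) and Fabp7 (0.23 ± 0.09) were higher and Abhd12 (−0.17 ± 0.04), Fabp5 (−0.33 ± 0.08) and Fabp3 (−0.19 ± 0.06) were lower in LII. Fabp7 was lower in the MEC (−0.26 ± 0.09).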

How the data were processed

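RNA-seq was analysed for 64 libraries of rat entorhinal cortex, all of them deposited by the authors as raw counts per gene. Per the labels and the methods, total RNA went into stranded libraries after ribosomal RNA depletion. Read pairs were trimmed (Trimmomatic 0.33), aligned to Rn6 (STAR 2.4.0) and counted on RefSeq genes by strand (featureCounts of Subread 1.4.6-p1), without pairs mapping to several places. From these counts, genes passing filterByExpr (minimum count 10) were scaled by TMM and fitted in edgeR 4.0.16 (R 4.3.3) with 16 group means over all 64 libraries and no block, each contrast being tested by quasi-likelihood with BH adjustment. The SE is the LFC divided by the root of F, and 95% intervals use the t quantile of the fit. Log2 CPM carry a prior count of 2. The steps were tested on simulated data. The 6 genes were named by the rule that all members are described, and for each the 3 genes of most similar profile by Pearson's r (those of Dagla are not reported here). Members, lists and comparisons were chosen with earlier results of these data known, and the 5 libraries were left out by a rule (SD above 0.5) set after seeing the data. The same contrasts were recomputed with DESeq2 1.42.0, voom in limma 3.58.1, RLE, other filters, replicate blocks, single fits and leaving out each replicate. Promoter sequences and the gene table were RefSeq's, build GRCr8, and its coordinates were not mixed with those of Rn6.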

Additional observations from a re-analysis of the deposited data

Results flagged for a closer look

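Within groups of 4 or 5 libraries, 7 of 72 combinations of gene and group had 1 library far from the rest by Dixon's criterion, which chance does in about 1 in 20 groups. Dagla had 4 of them. In MEC LDeep P2 replicate 4 it stood at 7.56 log2 CPM (the others at 5.87 to 6.34) and in LEC LDeep P45 replicate 4 at 7.89 (6.31 to 6.54), the libraries with the highest Rn18s. The other two Dagla values were 6.19 in MEC LII P2 replicate 1 (5.85 to 5.94), the library with 6 counts of Slc17a7, and 6.39 in LEC LDeep P9 replicate 3 (6.06 to 6.11). Cnr1 stood at 8.95 log2 CPM in MEC LDeep P2 replicate 2 (8.72 to 8.79), Mgll at 4.08 in LEC LDeep P2 replicate 3 (4.51 to 4.69) and Napepld at 0.59 in LEC LDeep P2 replicate 1 (0.95 to 1.09).

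Of the tests of differences between contrasts, 3 were called for the 6 genes. The layer LFC of Cnr1 differed between P23/P45 and P2/P9 by −0.33, its region LFC differed between these ages by 0.38, and the region LFC of Faah differed by −0.96. Each of the 3 was lost when some single replicate was left out, as given with the results, and the Faah value rests on 2 to 27 counts per library.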

How the results depend on the processing

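For age, layer and region, calls and directions of the 6 genes were kept under DESeq2, RLE size factors, no filter and the replicate blocks. With at least 10 counts in every sample, which removes Faah and Napepld, the layer LFC of Daglb was −0.0736 and no longer called, that of Mgll was 0.14 and called, and 4353 genes were called between layers in place of 6767, of 9688 tested. With limma voom and quantile normalization, the age LFC of Faah was 0.31 and not called, the layer LFC of Dagla (0.0116) and Napepld (−0.24) turned, and those of Mgll (0.15) and Faah (−0.59) were called. Without the 5 libraries, the layer LFC of Dagla was 0.0008, the region LFC of Napepld was −0.0190 and that of Dagla was 0.20 and called. The cause was not tested. Leaving out each replicate in turn gave a layer LFC of Daglb from −0.1354 to −0.0896, lost without P23 replicate 2. The labels do not tie replicate numbers to animals, so no pairing was assumed. Libraries of the same number deviated together more than others, with a mean correlation of 0.13 over 96 pairs (55 above 0.1) against −0.04 over 300 (59 above 0.1), and 42 of 64 were closest to their own number, a hint from the data that numbers may share a source. With the replicate block, the layer LFC of Cnr1 was −0.29 and no call of age, layer or region changed, with 7073 genes called between layers and 2288 between regions. A random block lost the P23 over P9 call of Faah (0.42). With the 4 libraries of each replicate number summed, 1 call of a step between neighboring ages was lost as well. Low counts limit Faah, with a median of 11, and Napepld at P2 and P9. For Faah, the part of depth and that of its listing at 2 places were not tested.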
